A study of Arabidopsis thaliana with 8 samples.

Results

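The fil-8 yab3-2 double mutant of Arabidopsis thaliana, called fil yab3 here, was compared with wild type on 6 of the 8 arrays of the series, chosen by their titles. There were 2 fil yab3 arrays and 4 wild-type arrays, and the 2 arrays of the fil-8 yab3-2 yab5-1 triple mutant (fil yab3 yab5) served as a further comparison. All plants were of the Landsberg erecta (Ler) ecotype, were grown under short days and were sampled as apices at 14 days after sowing (DAS). Total RNA was labelled with biotin and measured on 1-colour Affymetrix arrays, 1 sample per array. Whether the arrays of a genotype stem from separate plantings is not stated, and the p-values therefore reflect variation among these RNA samples that could be technical. An apex dissected at this age can hold meristem, young leaves and stem, and in such a bulk sample fewer cells of a type and less RNA per cell cannot be told apart.

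YABBY proteins are plant transcription factors made in the outer, abaxial side of young lateral organs. FILAMENTOUS FLOWER (FIL) and YAB3 are the members most active in leaf primordia. They act in overlapping ways to establish the abaxial side, to let the lamina grow outward and to shut off meristem genes in the leaf. Their protein partners include the co-repressor SEU.

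Values are log2 signals, on which 1 unit is a doubling, and range from a floor of 2.10 to 15.76. Of 22746 probe sets other than the Affymetrix controls, 13888 lay above a log2 value of 4 on at least 2 arrays and were tested. A call is a limma adjusted p under 0.05. A probe set is described as clear of wild type where both fil yab3 arrays lay beyond all 4 wild-type arrays on the same side, with a difference of at least 1 log2 unit against all 4 and against wild-type arrays 3 and 4. The second condition was used because wild type split into 2 pairs of arrays. Within each pair Pearson's r across the 13888 probe sets was 0.970, while across pairs it ranged from 0.861 to 0.888. The fit behind the calls takes the 4 wild-type arrays as 1 group. Where the pairs differ, that gap therefore enters its standard errors and adjusted p-values. A gene that did not pass is not thereby shown to be unchanged. The fil yab3 arrays had an r of 0.964 with each other, of 0.936 to 0.956 with the second wild-type pair and of 0.877 to 0.914 with the first. Of 45 spike-in control probe sets, 42 were brighter on wild-type arrays 1 and 2 than on the other 6 arrays. In 3 Arabidopsis control transcripts, the 3′ probe sets exceeded the 5′ ones by a mean of 1.41 log2 units on fil yab3 array 1 and 0.403 on fil yab3 array 2. That measure of RNA integrity was 1.21 and 1.44 on wild-type arrays 1 and 2 and 0.361 and 0.399 on arrays 3 and 4. Its part in the results was not tested. Of the markers listed for tissues, only 2 have a named probe set. FDH, listed as an epidermal marker, was bright on every array, at 9.86 and 10.04 in fil yab3 and 9.85, 9.67, 10.37 and 9.70 in wild type. It was matched by symbol alone and its locus was not checked, so no tissue is read from it. CLV3, the stem-cell peptide of the shoot meristem, was dim, at 4.32 and 3.89 in fil yab3 against 2.10, 2.16, 2.59 and 2.19 in wild type, and was above 4 on too few arrays to be tested.

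YAB3 signal was examined first, because it checks the genotype. It was 3.35 and 4.99 on the fil yab3 arrays, 4.40 and 5.50 on the fil yab3 yab5 arrays and 8.46, 8.35, 9.48 and 8.91 on the wild-type arrays. Both fil yab3 arrays lay below every wild-type array, as did both fil yab3 yab5 arrays. The difference was -4.63 ± 0.55 (SE) against all 4 wild-type arrays (adjusted p = 0.033). Set against the second pair alone it was -5.03 (adjusted p = 0.0201). With fil yab3 array 1 raised to a log2 value of 4, under which levels are not read closely, these differences were -4.31 and -4.70. FIL has no named probe set and was not analysed here. YAB5, another leaf YABBY gene that is not mutated by label in this genotype, was at 6.03 and 5.60 in fil yab3 and 7.52, 7.17, 5.51 and 5.32 in wild type. The fil yab3 values lay between the wild-type pairs, and the difference was -0.57 ± 0.66 against all wild-type arrays and 0.40 against arrays 3 and 4, neither past the threshold (adjusted p = 0.858 and 0.504). SEU was at 7.99 and 9.26 in fil yab3 and 8.94, 8.94, 8.93 and 8.98 in wild type (difference -0.32 ± 0.33, adjusted p = 0.845). The wild-type arrays were nearly equal there, while the fil yab3 arrays fell on both sides of them.

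Loss of FIL and YAB3 was accompanied by 23 called probe sets, 0.166% of those tested, with 13 raised (0.0936%) and 10 lowered (0.072%). All 23 were also called in the same direction when fil yab3 was set against wild-type arrays 3 and 4 in a fit that gave arrays 1 and 2 a group of their own. That fit called 81 probe sets, 0.583%, with 41 raised (0.295%) and 40 lowered (0.288%). It uses the same arrays as the main fit, so the 2 sets of calls are not independent. With wild-type arrays 1 and 2 left out altogether, 49 of 13664 probe sets were called, and 18 of the 23 were among them. Of the 23, 12 name a single gene, 9 raised and 3 lowered, and the other 11 are unnamed here or name several genes. The lowered genes are YAB3 and a pair of loci of the lipid-transfer protein family, small secreted proteins that bind lipids at the cell surface and are abundant in the shoot epidermis. Those loci had the largest differences of the lowered genes that were called. The list of lipid-transfer proteins matched no tested gene by name, so the family was not surveyed. With AT5G55450, given below, the loci of the family named here are all lower in fil yab3. Other members among the clear loci, higher or lower, were not identified. The named loci therefore do not describe the family as a whole.

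AT4G22490 was at 2.16 and 4.52 in fil yab3, 2.16 and 2.16 in fil yab3 yab5 and 11.25, 11.31, 13.09 and 12.26 in wild type. Every wild-type array was far brighter than either fil yab3 array, and fil yab3 array 1 and both fil yab3 yab5 arrays were near the floor. The fitted difference was -8.64 ± 0.74 log2 units (adjusted p = 0.0115). With values under 4 raised to 4 it was -7.72, and -8.41 against wild-type arrays 3 and 4. AT5G59330 was at 3.01 and 3.65 in fil yab3, 4.45 and 2.26 in fil yab3 yab5 and 9.31, 9.72, 11.06 and 10.42 in wild type. With both fil yab3 arrays below a log2 value of 4, only a bound can be given, at least 70.0-fold lower (adjusted p = 0.0186). Within wild type, both loci were brightest on arrays 3 and 4, so the gap to fil yab3 is wider against that pair. AT5G55450, another locus of the family, was at 7.20 and 6.32 in fil yab3, 3.03 and 3.03 in fil yab3 yab5 and 7.52, 7.50, 10.07 and 10.19 in wild type. It passed against arrays 3 and 4 (-3.37, adjusted p = 0.00686) and not against all 4 (-2.06 ± 0.88, adjusted p = 0.718). Unlike the other two loci, AT5G55450 kept a signal well above the floor in fil yab3.

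**Figure D1:**
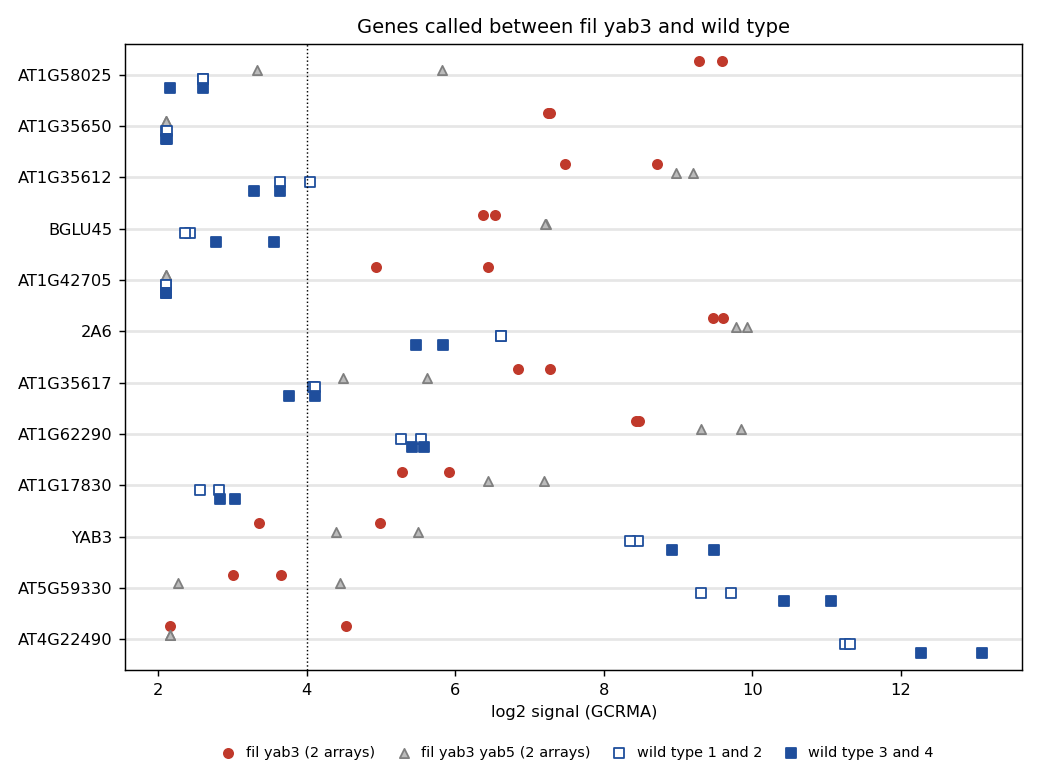
Log2 signal of the 12 named genes called between fil yab3 and wild type, 1 point per array, with fil yab3 in red circles, fil yab3 yab5 in grey triangles and wild type in blue squares (open for arrays 1 and 2, filled for arrays 3 and 4). The dotted line is the level of 4 used to filter dim probe sets. In every gene both red points lie apart from all 4 blue points.

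Raised genes with a known role were few. BGLU45, a beta-glucosidase that releases monolignols, the building blocks of lignin, from their stored glucosides, was at 6.37 and 6.53 in fil yab3 and 2.42, 2.36, 3.56 and 2.78 in wild type, at least 5.47-fold higher (adjusted p = 0.0137). All 4 wild-type arrays lay below a log2 value of 4, where a level cannot be read closely. 2A6, whose product resembles 2-oxoglutarate-dependent dioxygenases, was at 9.46 and 9.61 in fil yab3 and 6.62, 6.62, 5.47 and 5.84 in wild type and rose by 3.40 ± 0.36 (adjusted p = 0.0186). In fil yab3 yab5, BGLU45 was at 7.22 and 7.21 and 2A6 at 9.93 and 9.78. Neither difference from fil yab3 passed (-0.76 and -0.32, adjusted p = 0.743 and 1).

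The other 7 raised genes carry only a locus identifier here. AT1G62290 was at 8.43 and 8.47 in fil yab3 and 5.26, 5.54, 5.57 and 5.42 in wild type, with little spread in either group (difference 3.003 ± 0.22, adjusted p = 0.00734). AT1G35612 was at 8.72 and 7.48 in fil yab3 and 3.63, 4.05, 3.64 and 3.28 in wild type (4.45 ± 0.37, adjusted p = 0.0115). AT1G17830 was at 5.28 and 5.91 in fil yab3 and 2.81, 2.56, 2.83 and 3.03 in wild type, at least 3.02-fold higher (adjusted p = 0.0186). In fil yab3 yab5, AT1G62290 was at 9.85 and 9.30, AT1G35612 at 8.97 and 9.20 and AT1G17830 at 6.45 and 7.19, all above wild type as well. The difference between the 2 mutants did not pass for any of the 3 (adjusted p = 0.168, 0.598 and 0.302).

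AT1G35650 and AT1G42705 were bright in fil yab3 alone. AT1G35650 was at 7.24 and 7.27 in fil yab3, 2.10 and 2.11 in fil yab3 yab5 and 2.11, 2.11, 2.11 and 2.11 in wild type, at least 9.56-fold higher than wild type (adjusted p = 4.91e-05). AT1G42705 was at 6.44 and 4.94 in fil yab3, 2.10 and 2.11 in fil yab3 yab5 and 2.11, 2.11, 2.11 and 2.11 in wild type, at least 3.23-fold higher (adjusted p = 0.0186). All 6 other arrays sat at the floor, where there is almost no spread, and both probe sets are of the type marked as able to match several genes. The difference between fil yab3 and fil yab3 yab5 passed for AT1G35650 (at least 9.56-fold higher, adjusted p = 2.60e-05) and for AT1G42705 (at least 3.23-fold higher, adjusted p = 0.0125), in a comparison that called 0.677% of probe sets. AT1G58025 was the most raised named gene, at 9.29 and 9.60 in fil yab3, 5.82 and 3.33 in fil yab3 yab5 and 2.60, 2.60, 2.60 and 2.15 in wild type, at least 43.5-fold higher than wild type (adjusted p = 0.0115). It too was higher in fil yab3 than in fil yab3 yab5, by 4.87 (adjusted p = 0.0287). AT1G35617 was at 7.28 and 6.84 in fil yab3, 4.49 and 5.61 in fil yab3 yab5 and 4.09, 4.11, 3.77 and 4.11 in wild type (3.04 ± 0.33 against wild type, adjusted p = 0.0196), and its difference from fil yab3 yab5 did not pass (2.01, adjusted p = 0.0953).

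Most of these calls were lost in at least 1 fit that left out an array. Leaving out a fil yab3 array leaves 1 in its group, which widens the standard error. Fewer calls there do not show that 1 array carried the differences. Without fil yab3 array 1, the array with the larger 3′ excess, limma called 0 probe sets (433 at an unadjusted p under 0.05), and 3 when the probe sets tested with all 8 arrays were kept. Without fil yab3 array 2 it called 9. The count was 15 without wild-type array 1 and 11 without wild-type array 4. AT1G35650 was called without any 1 of the 6 other arrays and fell below the filter on dim probe sets without either fil yab3 array. AT4G22490 and AT1G35612 lost their calls only without fil yab3 array 1 (adjusted p = 0.0914 for each), and YAB3 lost its call without any 1 of the 8 arrays (adjusted p = 0.0568 to 0.277). AT1G58025 and AT1G62290 lost theirs without either fil yab3 array (adjusted p = 0.151 and 0.104, and 0.0914 and 0.0579). AT5G59330, BGLU45 and 2A6 lost theirs without either fil yab3 array and also without wild-type array 4 (0.0586, 0.0502 and 0.0586). AT5G59330 did so without wild-type array 2 too (0.0508), and 2A6 without either fil yab3 yab5 array (0.0567 for array 1). AT1G17830 and AT1G35617 kept theirs only without a fil yab3 yab5 array, and AT1G42705 lost its call without any array (0.0518 to 0.0829) where it could be tested. Over these fits the differences themselves ranged from -5.45 to -3.81 for YAB3 and from -9.82 to -7.45 for AT4G22490. They ranged from 3.83 to 5.07 for AT1G35612. Narrower ranges were seen for AT1G58025 (6.80 to 7.11), AT1G62290 (2.94 to 3.04) and BGLU45 (3.53 to 3.93).

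A broader set of genes was described by position alone. In 15% of the tested probe sets both fil yab3 arrays lay beyond all 4 wild-type arrays, 8.61% above and 6.37% below. Of the tested probe sets, 326 (2.35%) were also past 1 log2 unit by both measures and so clear of wild type, 207 (1.49%) higher and 119 (0.857%) lower in fil yab3. The 23 called probe sets are among them, and 47 of the 326 were called against wild-type arrays 3 and 4. The clear probe sets name 157 of 7430 tested genes (2.11%), 104 higher (1.4%) and 53 lower (0.713%). This choice uses the fil yab3 and wild-type values themselves, so the counts describe the 6 arrays and test nothing. Just inside the limit were AT3G57450 (1.01 and 1.02) and AT3G60180 (1.01 and 1.08), and just outside it BGLU46 (0.987 and 1.61) and SP1L2 (1.26 and 0.987), each given as the difference against all 4 and against arrays 3 and 4.

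**Figure D2:**
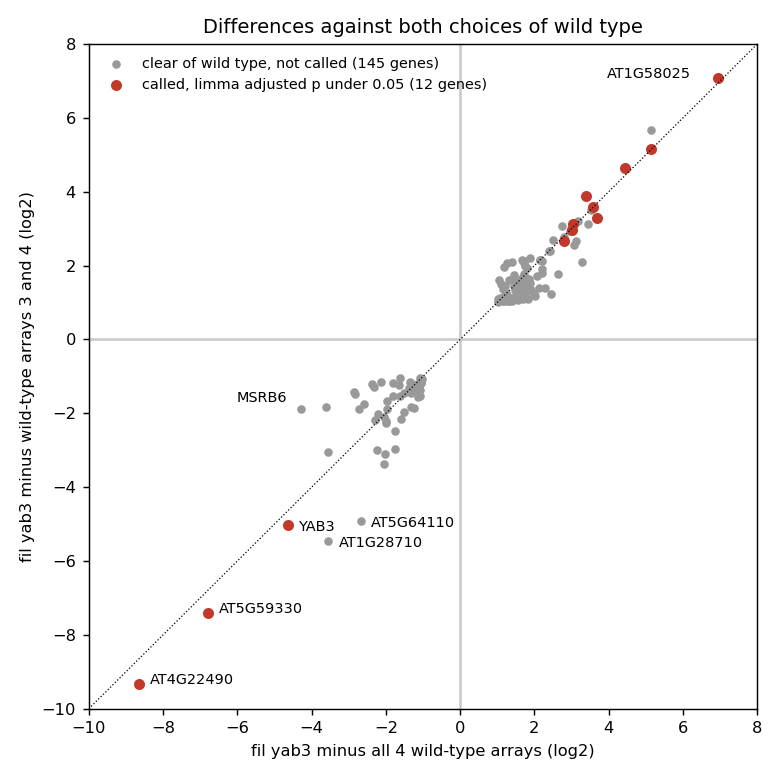
Difference of fil yab3 from all 4 wild-type arrays (horizontal axis, log2) and from wild-type arrays 3 and 4 (vertical axis, log2) for the 157 named genes clear of wild type, with the 12 called genes in red. The called genes lie near the dotted line of equal differences, while MSRB6, AT1G28710 and AT5G64110 lie far from it.

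Some genes were called only against wild-type arrays 3 and 4. Beside GH3.3, GIS and CuAO1, described below with their pathways, 9 loci not called against all 4 arrays passed against that pair while clear of wild type, 5 of them lower in fil yab3. AT1G28710 was at 4.76 and 4.18 in fil yab3 and 6.06, 6.24, 10.22 and 9.64 in wild type, so that its difference was -3.57 ± 1.24 against all 4 arrays and -5.46 against arrays 3 and 4 (adjusted p = 6.92e-04). AT5G64110 lay at the floor in fil yab3, at 2.11 and 2.11, against 2.64, 2.46, 8.30 and 5.74 in wild type, and wild-type arrays 3 and 4 stood far above arrays 1 and 2. AT5G62150 was at 2.77 and 2.57 in fil yab3 and 4.03, 4.21, 5.65 and 5.70 in wild type, at least 3.20-fold lower than arrays 3 and 4 (adjusted p = 0.00176). AT1G52770 was at 2.42 and 2.16 in fil yab3 and 2.88, 3.72, 4.58 and 4.30 in wild type, at least 1.36-fold lower than arrays 3 and 4 (adjusted p = 0.0375), and most of its fitted difference lies below a log2 value of 4. Among those higher in fil yab3, AT1G33790, a jacalin-lectin locus, was at 6.15 and 6.18 in fil yab3, 9.29 and 9.49 in fil yab3 yab5 and 2.98, 2.23, 4.02 and 2.96 in wild type (2.68, adjusted p = 0.0457). It lay lower in fil yab3 than in fil yab3 yab5 (-3.22, adjusted p = 0.0483). AT3G24450 was at 8.92 and 8.77 in fil yab3 and 5.43, 5.05, 6.73 and 5.87 in wild type (2.55, adjusted p = 0.0261). AT3G02910 (1.95, adjusted p = 0.00992) and AT2G34340 (1.12, adjusted p = 0.0496) were higher by less. Of these 9 loci, AT5G55450 is the lipid-transfer locus given above.

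Genes with a symbol allow functions to be described, and 29 of the 157 clear genes have one, 21 higher and 8 lower in fil yab3. They were named after their values were seen. Unless a call is stated, none of those below passed the threshold with all wild-type arrays.

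Auxin-conjugating genes lay on both sides of wild type. GH3 enzymes join auxin to amino acids, which stores or inactivates the hormone, and 4 of them were tested. GH3.3 was at 6.59 and 7.21 in fil yab3 and 7.97, 7.88, 9.58 and 9.17 in wild type, below every wild-type array. Its difference was -1.75 ± 0.54 against all 4 arrays (adjusted p = 0.595) and -2.47 against arrays 3 and 4, where it passed (adjusted p = 0.0233). WES1, also known as GH3.5, was at 11.44 and 11.86 in fil yab3 and 9.43, 9.62, 10.63 and 10.14 in wild type. GH3.17 was at 10.25 and 10.94 in fil yab3 and 8.07, 8.15, 9.77 and 8.75 in wild type. Both lay above every wild-type array, by 1.70 ± 0.36 and 1.91 ± 0.49 (adjusted p = 0.33 and 0.495). Of 9 auxin genes tested, which include IAA repressors and YUC synthesis enzymes, 2 were clear upward and 1 downward, all of them GH3 genes. None was called with all wild-type arrays, and 2 were called lower against arrays 3 and 4, GH3.3 among them. The median difference of the 9 was -0.12 against all wild-type arrays and 0.50 against arrays 3 and 4, beside 0.01 and 0 over all tested probe sets.

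Among other hormone-related genes with a symbol, SLY2, BAT1 and JRG21 were clear above wild type and none of the 3 was called. SLY2, or SNEEZY, an F-box protein that can target the growth-repressing DELLA proteins of gibberellin signalling, was at 7.62 and 5.90 in fil yab3, 7.29 and 6.69 in fil yab3 yab5 and 3.80, 3.80, 3.82 and 3.82 in wild type. All wild-type arrays were below 4, which makes it at least 6.76-fold higher (adjusted p = 0.0906). For the gibberellin receptor GID1A the fil yab3 and wild-type arrays overlapped, and for GID1B they did not, with differences of 0.53 ± 0.38 and 0.84 ± 0.37 (adjusted p = 0.792 and 0.727). BAT1, also called PIZZA, an acyltransferase that lowers the level of active brassinosteroids, was at 8.14 and 8.19 in fil yab3 and 6.51, 6.84, 6.62 and 5.73 in wild type (1.74 ± 0.53, adjusted p = 0.586). JRG21, a jasmonate-regulated gene, was at 4.98 and 4.86 in fil yab3, 8.13 and 2.14 in fil yab3 yab5 and 2.13, 2.14, 2.13 and 2.13 in wild type, where all arrays sat at the floor. The fil yab3 arrays were nearly equal for JRG21, whereas the fil yab3 yab5 arrays lay far apart, and the adjusted p, which uses 1 estimate of spread for all groups, was 0.761.

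**Figure D3:**
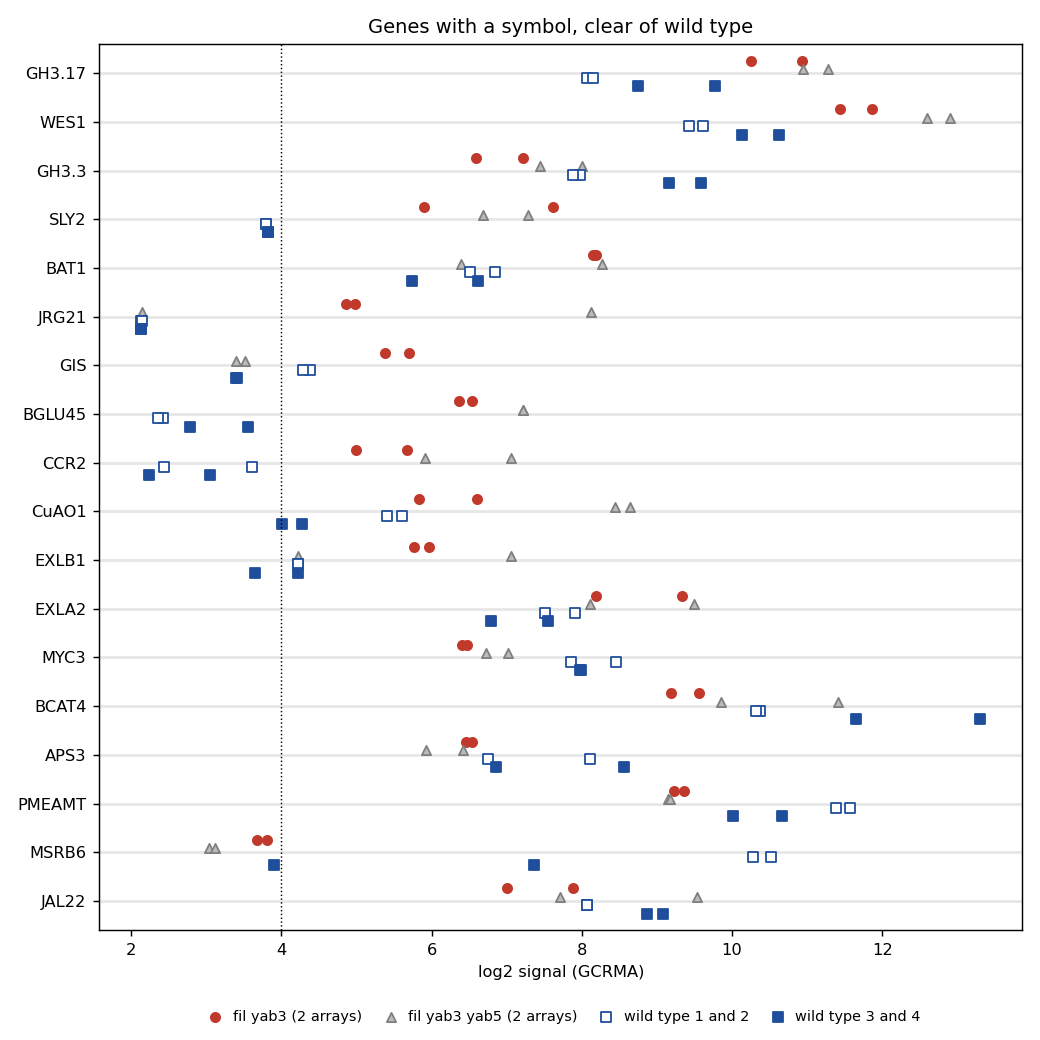
Log2 signal of 18 genes with a symbol that were clear of wild type, 1 point per array, with fil yab3 in red circles, fil yab3 yab5 in grey triangles and wild type in blue squares (open for arrays 1 and 2, filled for arrays 3 and 4). BGLU45 is the only one of them called with all wild-type arrays, and MSRB6 shows the widest gap between the wild-type arrays.

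Lignin and cell-wall genes that were clear also lay above wild type. CCR2, a cinnamoyl-CoA reductase of the monolignol pathway, was at 4.99 and 5.68 in fil yab3 and 3.61, 2.44, 2.24 and 3.04 in wild type, at least 2.52-fold higher (adjusted p = 0.243). BGLU46, a close relative of BGLU45 chosen after its values were seen, was just outside the limit for clear genes, as given above. Of 9 lignin and monolignol genes, BGLU45 and CCR2 were clear and BGLU45 was called, while the median difference was 0.12 against all wild-type arrays and -0.10 against arrays 3 and 4. EXLB1, an expansin-like protein related to the expansins that loosen cell walls, was at 5.76 and 5.97 in fil yab3 and 4.22, 4.22, 3.65 and 4.22 in wild type. Its relative EXLA2 was at 8.18 and 9.34 in fil yab3 and 7.91, 7.51, 7.54 and 6.79 in wild type. Both were clear upward (1.79 ± 0.68 and 1.32 ± 0.51, adjusted p = 0.699 and 0.699), as 2 of 27 cell-wall genes whose median was 0.15, and 0.36 against arrays 3 and 4. CuAO1, a copper amine oxidase that breaks down polyamines, was at 6.61 and 5.83 in fil yab3, 8.45 and 8.64 in fil yab3 yab5 and 5.41, 5.61, 4.27 and 4.002 in wild type, and passed against arrays 3 and 4 (2.08, adjusted p = 0.0362).

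The clear genes listed for sulphur and glucosinolate metabolism lay below wild type, while some other listed genes lay above it. MYC3, a basic helix-loop-helix factor of jasmonate responses that acts with MYB factors on glucosinolate genes, was at 6.41 and 6.47 in fil yab3 and 8.46, 7.85, 7.98 and 7.98 in wild type, with narrow spread in both (-1.63 ± 0.23, adjusted p = 0.0774). Its difference from the second wild-type pair was -1.54 (adjusted p = 0.0584). BCAT4, which starts the chain elongation of methionine for glucosinolates, was at 9.57 and 9.18 in fil yab3, 9.85 and 11.41 in fil yab3 yab5 and 10.37, 10.31, 11.65 and 13.31 in wild type. The wild-type arrays were far apart, and the difference of -2.04 ± 0.88 had an adjusted p of 0.727. APS3, an ATP sulfurylase of sulphate assimilation, was at 6.53 and 6.46 in fil yab3 and 8.11, 6.75, 6.85 and 8.56 in wild type (-1.07 ± 0.54, adjusted p = 0.761). These 3 were the clear members of a list of 8 tested genes drawn up after the values were seen, whose median difference was -0.39 against all wild-type arrays and -0.65 against arrays 3 and 4. FMO had first been matched to this list by part of a name and was removed with the values known, and with it the medians over 9 genes were 0.08 and -0.08. None of the 8 was called. The other list of glucosinolate and sulphur genes held 2 tested genes, the transporters GTR2 and GTR1, with a median of 0.62 against all wild-type arrays and 0.83 against arrays 3 and 4. GTR2 was at 9.37 and 9.73 in fil yab3 and 8.67, 7.93, 8.80 and 8.74 in wild type (1.01 ± 0.30, adjusted p = 0.583).

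PMEAMT, MSRB6 and JAL22 were also clear below wild type, and none of the 3 was called. PMEAMT, a phosphoethanolamine methyltransferase on the way to phosphatidylcholine, was at 9.36 and 9.23 in fil yab3, 9.15 and 9.17 in fil yab3 yab5 and 11.57, 11.38, 10.01 and 10.67 in wild type (-1.61 ± 0.43, adjusted p = 0.495). MSRB6, a methionine sulfoxide reductase, was at 3.81 and 3.68 in fil yab3 and 10.28, 10.53, 3.91 and 7.37 in wild type. Wild-type array 3 was close to the fil yab3 arrays, and arrays 1 and 2 were far above. The gene was at least 16.2-fold below the mean of all wild-type arrays (adjusted p = 0.704). It was at least 3.11-fold below the mean of arrays 3 and 4 (adjusted p = 0.438). Neither bound holds for wild-type array 3, which itself lay below a log2 value of 4. JAL22, a jacalin-related lectin, was at 7.01 and 7.88 in fil yab3 and 8.07, 8.07, 9.07 and 8.87 in wild type (-1.08 ± 0.57, adjusted p = 0.77), with fil yab3 array 2 close to wild-type arrays 1 and 2.

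Regulators clear upward included GIS, a zinc finger protein that promotes trichome formation downstream of gibberellin. It was at 5.38 and 5.70 in fil yab3, 3.51 and 3.40 in fil yab3 yab5 and 4.38, 4.29, 3.40 and 3.40 in wild type. The difference was 1.67 ± 0.35 against all 4 arrays (adjusted p = 0.315), and GIS passed against arrays 3 and 4 (at least 2.91-fold higher, adjusted p = 0.00686). Against fil yab3 yab5, also below 4, it was at least 2.91-fold higher (adjusted p = 0.0988). bZIP58, a leucine-zipper factor, was at 8.73 and 8.30 in fil yab3 and 3.88, 4.21, 7.21 and 5.63 in wild type, where arrays 1 and 2 were far below arrays 3 and 4 (3.28 ± 0.89, and 2.09 against arrays 3 and 4, adjusted p = 0.498 and 0.186). It was the only clear gene of 10 bZIP factors tested. CHR40, a chromatin remodelling protein of the SNF2 family, was at 5.17 and 4.79 in fil yab3 and 2.93, 3.53, 3.25 and 3.39 in wild type, at least 1.97-fold higher (adjusted p = 0.0774). JKD, or JACKDAW, a zinc finger protein known for root tissue patterning, was at 6.11 and 5.38 in fil yab3 and 4.89, 5.15, 4.25 and 4.23 in wild type (1.11 ± 0.35, adjusted p = 0.615). CLE27, of the family of secreted signalling peptides that includes CLV3, was at 7.77 and 6.74 in fil yab3 and 5.88, 6.32, 6.002 and 6.38 in wild type (1.11 ± 0.33, adjusted p = 0.565).

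Secreted proteins were also among the clear genes. ARPN, or plantacyanin, a small blue copper protein, was at 9.01 and 8.77 in fil yab3, 9.68 and 10.44 in fil yab3 yab5 and 5.94, 6.90, 6.88 and 7.07 in wild type (2.19 ± 0.37, adjusted p = 0.146), with the fil yab3 arrays well apart from wild type. ATSBT5.2, a subtilisin-like protease, was at 6.69 and 5.12 in fil yab3 and 2.65, 3.60, 4.63 and 4.74 in wild type (2.001 ± 0.67, adjusted p = 0.641).

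In some clear genes the fil yab3 arrays lay far apart. HIS1-3, a linker histone known to be induced by drought, was at 8.54 and 2.84 in fil yab3, 8.91 and 7.76 in fil yab3 yab5 and 2.12, 2.22, 2.14 and 2.23 in wild type. LEA4-5, a late embryogenesis abundant protein that protects cells during water loss, was at 6.50 and 3.86 in fil yab3, 8.93 and 3.27 in fil yab3 yab5 and 2.31, 3.26, 2.11 and 2.10 in wild type. For both, fil yab3 array 1 was far above wild type and array 2 only just above it, and neither passed (adjusted p = 0.699 and 0.772). AT3G02480, a locus named only once its values were known, was at 8.84 and 6.84 in fil yab3, 9.80 and 3.73 in fil yab3 yab5 and 2.10, 4.34, 2.13 and 2.20 in wild type (adjusted p = 0.595), so that both fil yab3 arrays were high. PDF1.4, a defensin-like protein, had the opposite order, at 2.76 and 6.61 in fil yab3 and 2.16, 2.34, 2.43 and 2.16 in wild type (adjusted p = 0.695). Among the 11 tested genes of abscisic acid, drought and cold, LEA4-5 was the only clear one, and the median difference was -0.36, or -0.15 against arrays 3 and 4. Over the 326 clear probe sets the fil yab3 arrays differed from each other by a median of 0.484 log2 units, against 0.294 over all tested probe sets, and 18 of the 326 differed by more than 2.

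**Figure D4:**
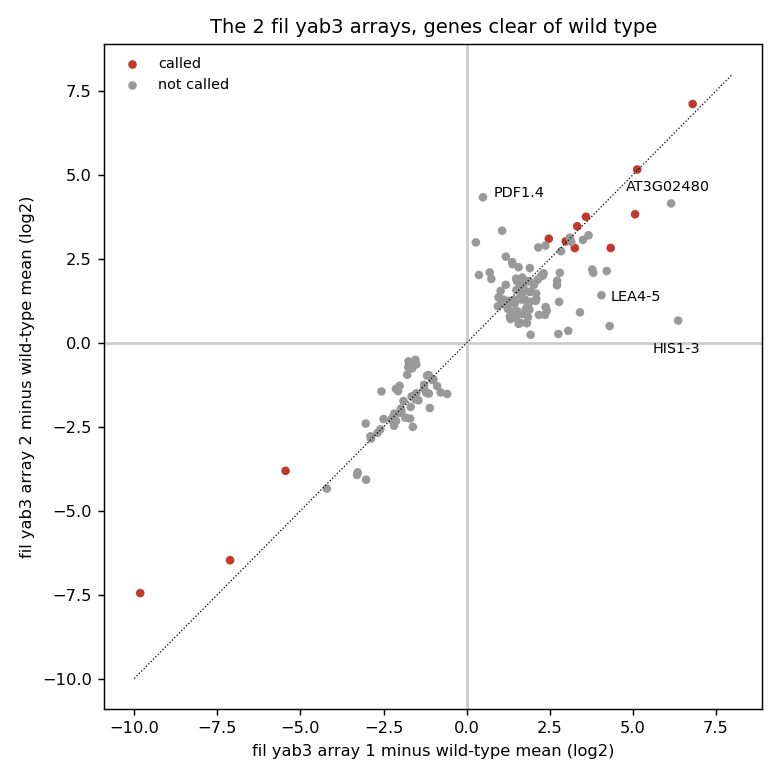
Difference of fil yab3 array 1 (horizontal axis, log2) and of fil yab3 array 2 (vertical axis, log2) from the mean of the 4 wild-type arrays, for the 157 named genes clear of wild type, with called genes in red. HIS1-3 and LEA4-5 lie far to the right of the dotted line of equal differences, and PDF1.4 lies above it.

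Few genes of leaf form were tested. With 2.11% of all named genes clear, the lack of a clear member in such short lists says little about them. Of the 5 lamina and margin growth genes tested (SPT, NGA2, NUB, JAG and NGA3) none was clear or called, and the median difference was 0.21 against all wild-type arrays and -0.25 against arrays 3 and 4. NGA2, a regulator of leaf margin growth, was at 4.64 and 4.65 in fil yab3 and 7.96, 7.52, 4.65 and 4.89 in wild type, close to wild-type arrays 3 and 4 and far below arrays 1 and 2. SPT, a basic helix-loop-helix factor that restrains leaf growth, was at 7.38 and 6.71 in fil yab3 and 5.95, 4.53, 6.07 and 6.34 in wild type (1.32 ± 0.53, adjusted p = 0.704). Both fil yab3 arrays exceeded all wild-type arrays for SPT, but the difference from arrays 3 and 4 was 0.84. None of the 3 stomatal regulators tested (SPCH, MUTE and FMA) was clear, and of 3 trichome regulators only GIS was. SPCH, which starts the stomatal lineage, was at 8.29 and 8.89 in fil yab3 and 8.80, 8.68, 9.10 and 9.51 in wild type (-0.43 ± 0.44, adjusted p = 0.845). In the anthocyanin pathway, DFR was at 10.21 and 10.28 in fil yab3 and 8.85, 8.58, 8.36 and 11.32 in wild type, where array 4 stood above the rest and above both fil yab3 arrays. UF3GT, a glycosyltransferase of the same pathway, had that order too, at 8.65 and 8.62 in fil yab3 and 6.59, 6.53, 6.42 and 9.55 in wild type. No named probe set of the lists of meristem, abaxial, floral organ, root or seed genes passed the filter, so those genes were not analysed here. Of 27 gene lists with at least 3 tested genes, 10 had a clear member and 17, holding 158 genes, had none. Those 17 are set apart by having none, so they cannot be compared with the 2.11% clear over all named genes tested. Lists were matched by gene name and miss members named otherwise. ATSBT5.2 is absent from the protease list, MYC3 from the basic helix-loop-helix list and SLY2 from the gibberellin and F-box lists. All 3 genes were clear, so an empty list does not mean that its family had no clear gene. The medians of those 17 lists ran from -0.43 to 0.97 against all wild-type arrays and from -0.25 to 0.78 against arrays 3 and 4.

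By chromosome, all 9 raised genes that were called lie on chromosome 1, and the 3 lowered ones lie on chromosomes 4 and 5. Chromosome 1 holds 26.1% of the named genes tested. Among clear genes it holds 30 of 104 higher ones (28.8%) and 17 of 53 lower ones (32.1%), shares near that of all tested genes. AT1G35612, AT1G35617 and AT1G35650 are near neighbours, 2 and 9 steps apart in the gene order of the TAIR10.1 assembly. AT3G02480 and AT3G02500, 3 steps apart on chromosome 3, were both higher in fil yab3.

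**Figure D5:**
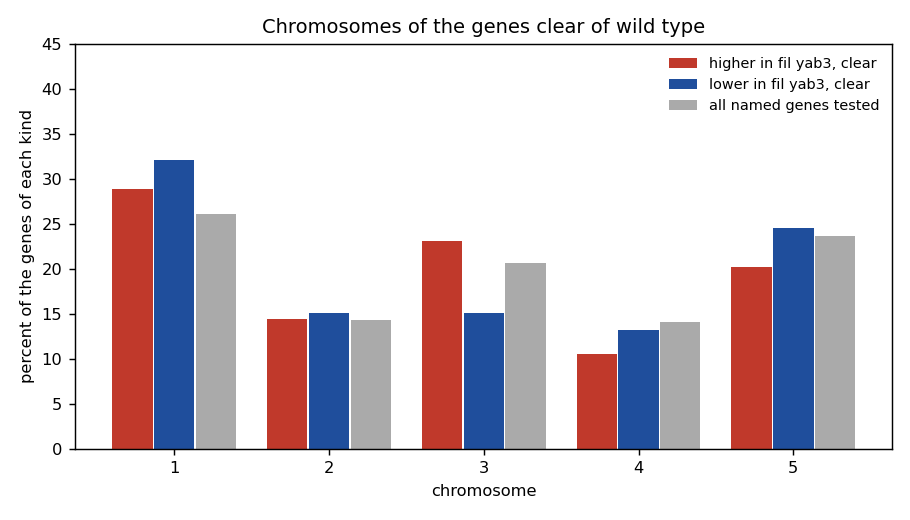
Share of genes on each chromosome (vertical axis, percent) for the 104 named genes clear of wild type and higher in fil yab3 (red), the 53 lower in fil yab3 (blue) and all 7430 named genes tested (grey). The red and blue bars follow the grey ones within about 6 percentage points, with chromosome 1 highest for each kind.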

How the data were processed

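The deposited table holds log2 expression values, made by the authors, whose processing notes at submission name GCRMA and R 2.7.2. It covers 8 arrays with 22810 probe sets, of which 64 Affymetrix controls were left out. No scanner files were used here, so the background correction could not be varied. The number of arrays, the split of wild type into pairs and the floor of the arrays limit the precision. Where all arrays of a group lay below a log2 value of 4, a fold is given as a bound against 4. Array medians lay between 5.74 and 5.88.

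Groups came from the array titles. limma 3.58.1 in R 4.3.3 was fitted to all 8 arrays as 3 groups, with Benjamini-Hochberg adjustment over 13888 probe sets, and was tested on simulated data. A second fit gave wild-type arrays 1 and 2 a group of their own. Alternatives were the filter, normalization, array weights, a replicate block and leaving out each array. Deviations from the group means had r = -0.096 for fil yab3 and wild-type arrays 1. With 2 fil yab3 arrays, whose deviations mirror each other, and wild type split into pairs, this cannot show whether the numbers pair the samples.

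Of the tested probe sets, 7512 name 1 gene, 278 several and 6098 none here, by the platform annotation updated through RefSeq's TAIR10.1 gene table (7497 matched). Genes named were YAB3, YAB5 and SEU, every called gene, clear genes called against wild-type arrays 3 and 4, up to 3 clear members of each gene list (or 2 others where none was clear), and, chosen after their values were seen, clear genes with a symbol. Members and lists were chosen with earlier results of these data known. Several name patterns of the lists were corrected after they were found to match unrelated genes, with the values already seen. Roles of loci without a symbol are given only for lipid-transfer and jacalin families.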

Additional observations from a re-analysis of the deposited data

Results flagged for a closer look

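In 8 of 82 named genes, 1 wild-type array stood apart from the other 3 by Dixon's test, which sets its gap against the range of the 4. The share flagged over all tested probe sets was not computed. The 8 genes were AT1G58025 (array 4, 2.15), AT1G35617 (array 3, 3.77), UF3GT (array 4, 9.55), DFR (array 4, 11.32), CYP71B36 (array 2, 2.10), EXLB1 (array 3, 3.65), GTR2 (array 2, 7.93) and ARPN (array 1, 5.94), all as log2 signals. The flagged values of AT1G58025, AT1G35617, CYP71B36 and EXLB1 lie below a log2 value of 4, where levels are not read closely. UF3GT and DFR, both of the anthocyanin pathway, stood out on the same array.

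The difference between fil yab3 and fil yab3 yab5 passed the limma test for 4 named genes. It was 4.87 for AT1G58025, 3.58 for AT1G42705 and 5.15 for AT1G35650, each higher in fil yab3. For the last 2 the fil yab3 yab5 arrays sat at the floor, which allows only at least 3.23-fold and at least 9.56-fold. It was -3.22 for AT1G33790, lower in fil yab3 (log2).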

How the results depend on the processing

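The count of called probe sets, 23 with all arrays, was 12 without a filter, of which 4 were among the 23. It was 81 with wild-type arrays 1 and 2 as a group of their own, 49 against arrays 3 and 4 only and 1790 against arrays 1 and 2 only. It ran from 0 to 26 when each array was left out, and was 3 and 15 without fil yab3 replicate 1 or 2 where the original 13888 probe sets were kept, alternatives chosen after seeing the data. With the replicate number as a block the count was 950, and whether the numbers pair the samples is not known. Quantile or median scaling left it at 23. The count between fil yab3 and fil yab3 yab5, 94, was 233 with the wild-type pair apart, 144 without a filter and 11 to 63 when each mutant array was left out. The 326 clear probe sets became 904 against arrays 3 and 4 only and 311 to 770 when each array was left out. The sign turned, never past the threshold, for YAB5 (0.40), FMA (0.018), EIN3 (0.13), GSTU16 (0.77), AT1G30260 (0.98) and PIFI (0.051) against arrays 3 and 4 in either fit. It also turned for GSTU16 (0.23) and AT1G30260 (0.082) with array weights, and for SEU (0.31, and -0.96 without replicate 2) and RTE1 (-0.27, and 0.66 without replicate 2) without fil yab3 replicate 1 on either choice of probe sets. The cause was not tested. Signals near the floor of the arrays limit the folds of dim genes.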

Other observations

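In 68 probe sets of genes in the plastid genome, the median difference of wild-type arrays 1 and 2 from arrays 3 and 4 was 7.52 log2 units, and that of fil yab3 from wild-type arrays 3 and 4 was 1.47. None of those genes was clear of wild type. With so wide a gap between the wild-type pairs, fil yab3 arrays can hardly lie beyond all 4 wild-type arrays. The lack of clear genes therefore does not show that plastid genes were unchanged. Nuclear photosynthesis genes had a median difference of -0.25 between fil yab3 and all wild-type arrays and 0.05 against arrays 3 and 4 (10 genes, none clear).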
